A study of Arabidopsis thaliana with 6 samples.

Results

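The 8 genes described here encode 5 peptides of the EPFL family (EPFL1, EPFL2, EPFL4, EPFL5 and EPFL6) and the 3 receptor kinases of the ERECTA family (ER, ERL1 and ERL2) of Arabidopsis thaliana. They were chosen by gene code for their function and matched by code to the gene models in the count files, with the model suffix dropped. All 8 were found among the 33602 gene models of each file, and all 8 passed the filter on low counts. The data are read-pair counts from 6 polyA RNA libraries of whole seedlings at Boyes stage 1.02, kept in vitro under long days at 21 °C. All 6 carry 35S::CUC2-GR, a transgene in which a viral promoter drives the NAC transcription factor CUC2 fused to the steroid-binding part of the glucocorticoid receptor. The 3 Dex libraries come from seedlings that were given dexamethasone for 6 h (10 µL added to 10 mL of liquid medium). The 3 no_Dex libraries come from untreated seedlings, labelled with 0 h, 0 µL and no medium volume. Dexamethasone lets such a fusion protein enter the nucleus. The dexamethasone concentration, a mock treatment and a line without the transgene are not given in the labels. Effects of CUC2-GR, of dexamethasone, of handling and of any difference in medium or time therefore cannot be told apart.

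EPFL peptides are small, secreted and rich in cysteines, and ERECTA family receptors are leucine-rich-repeat kinases of the plasma membrane that bind them. In the epidermis the related peptides EPF1 and EPF2 act through these receptors and the co-receptor TMM to limit stomata. In stems EPFL4 and EPFL6 act through ER to promote elongation, and at leaf margins EPFL2 promotes the growth of teeth, a process in which CUC2 also acts.

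Between 26161582 and 29481253 pairs were counted per library, and Dex replicate 1 stood apart from the other Dex libraries. Its log2 CPM correlated with theirs across genes at 0.987 and 0.988, against 0.994 between those 2 and 0.994 to 0.995 among the no_Dex libraries. CPM is read pairs scaled to the library's total count, except that correlations used TMM-scaled library sizes and a prior count of 2. The CUC2 model, where transgene and native transcripts are counted together, averaged 867 ± 14.3 CPM in Dex and 849 ± 28.9 CPM in no_Dex (SD, n = 3 each), and its log2 fold change of 0.02 did not pass the test (edgeR adjusted p = 0.876). Markers of green leaf, root, guard cells and epidermis were detected. Of the 3 shoot meristem markers STM and KNAT1 were detected, and CLV3 had at most 3 pairs in any library.

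Because the transgene encodes a NAC factor, the 250 bases upstream of each member's annotated start in TAIR10.1 were searched for the NAC core letters CACG and TACG on both strands (CGTG and CGTA on the other strand). The 2 motifs share their last 3 letters, and where a match of one overlaps a match of the other both were counted; no matches overlapped in these 8 windows. The windows of the genes whose difference passed the test in the unpaired or in the paired fit below are shown 5′ to 3′ on the gene's strand, with matches in capitals. They lie at chr4:17780479-17780728 (plus strand) for EPFL2, chr2:12942830-12943079 (minus strand) for EPFL6 and chr2:11214663-11214912 (minus strand) for ER.
EPFL2: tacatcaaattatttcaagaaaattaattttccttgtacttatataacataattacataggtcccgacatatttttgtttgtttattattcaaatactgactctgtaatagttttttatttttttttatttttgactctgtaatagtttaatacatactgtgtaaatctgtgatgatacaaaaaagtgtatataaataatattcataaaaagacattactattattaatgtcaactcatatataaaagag
EPFL6: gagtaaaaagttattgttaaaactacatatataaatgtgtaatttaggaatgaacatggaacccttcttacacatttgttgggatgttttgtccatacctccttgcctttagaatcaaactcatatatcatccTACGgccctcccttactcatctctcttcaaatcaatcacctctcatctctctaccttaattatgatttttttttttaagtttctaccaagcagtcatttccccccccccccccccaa
ER: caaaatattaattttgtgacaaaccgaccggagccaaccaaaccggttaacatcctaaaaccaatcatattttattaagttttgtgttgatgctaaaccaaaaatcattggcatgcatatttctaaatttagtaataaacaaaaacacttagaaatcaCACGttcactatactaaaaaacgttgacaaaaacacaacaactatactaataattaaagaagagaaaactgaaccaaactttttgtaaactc
The EPFL2 window held neither motif, the EPFL6 window held 1 TACG and the ER window 1 CACG. Among the other members, EPFL5 and ERL2 held 1 TACG each, ERL1 held 2 CACG, and EPFL1 and EPFL4 held none. CACG was present in 45.6% and TACG in 52.0% of the windows of 27443 protein-coding genes, and at least 1 of them in 70.7%. The absence of these letters from the EPFL2 window says nothing about sequence farther away, and the next annotated gene upstream of EPFL2 lies 3283 bases off.

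Set against no_Dex seedlings, Dex seedlings show which of these transcripts differ after treatment. EPFL2 rose about 4-fold and EPFL6 rose by a smaller amount, with a call that was lost when most single libraries were left out. None of the 3 receptors passed the unpaired test, but ER was lower in every Dex library than in every no_Dex library. Of the 8 members 2 were called higher and 0 lower at an adjusted p under 0.05 by the edgeR quasi-likelihood fit. None was called lower by DESeq2 or limma either, and at an unadjusted edgeR p under 0.05 the only lower member was ER. The background over the 21344 genes tested was 14.4% called, with 5.99% higher and 8.40% lower. The median log2 fold change of the members was 0.23, beside 0.01 over all tested genes. The values of the groups did not overlap for 4 members (EPFL2, EPFL5, EPFL6 and ER), and did not overlap for 36.7% of all tested genes. The number of members called higher was 3 without Dex replicate 1 and 1 without any other single library. Over all genes, leaving out Dex replicate 1 raised the number called higher from 1279 of 21344 tested to 2339 of 21452. Leaving out any other single library lowered it to between 519 and 872. With the replicate number as a block, 1 member was called higher (EPFL2) and 1 lower (ER), where 17.6% of all tested genes were called.

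**Figure D1:**
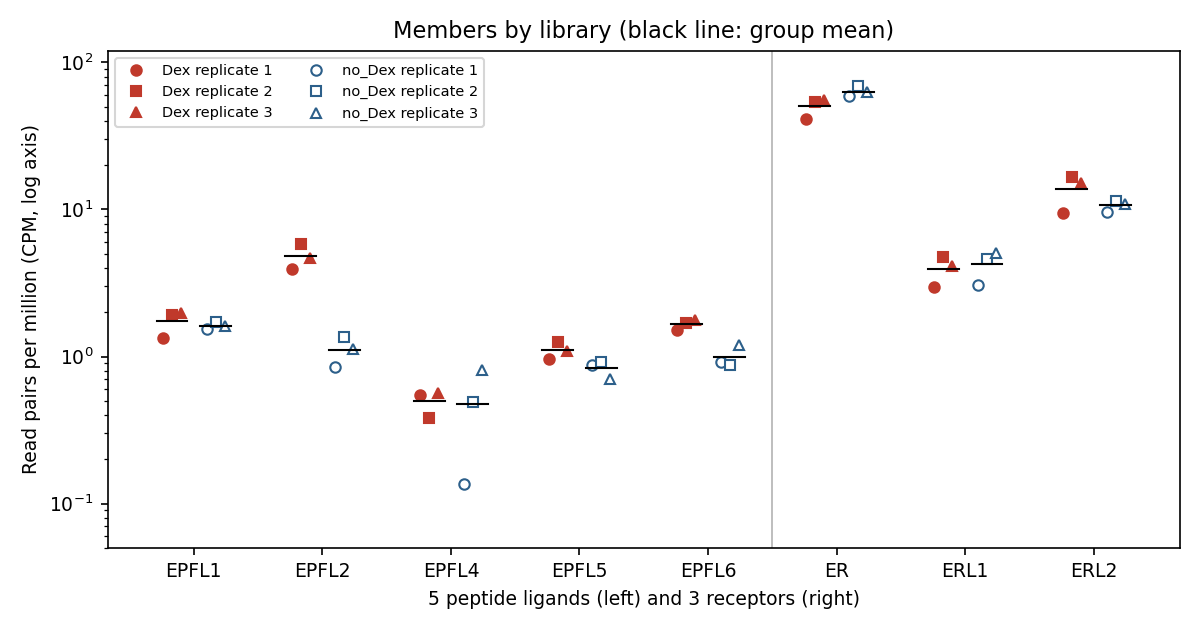
CPM on a log axis for each of the 8 members, with 3 Dex libraries (filled, left) and 3 no_Dex libraries (open, right) per gene and black lines at the group means. The Dex and no_Dex points of EPFL2 are farthest apart, at 3.92 to 5.85 CPM against 0.848 to 1.37 CPM, and ER lies above all other members in each library.

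EPFL2 (AT4G37810, chromosome 4, 17780729 to 17781813, plus strand, 3 exons) had 114, 153 and 131 pairs in Dex replicates 1 to 3, and 25, 39 and 32 pairs in no_Dex replicates 1 to 3. That is 3.92, 5.85 and 4.64 CPM in Dex, against 0.848, 1.37 and 1.13 CPM in no_Dex. The lowest Dex value was above the highest no_Dex value. The log2 fold change was 2.09 (SE 0.22, edgeR adjusted p = 0.00112), or 4.26-fold with a 95% interval of 2.98-fold to 6.10-fold. Among the 1279 genes called higher it ranked 28 by fold change. Within the replicate numbers, whose meaning is not given in the labels, the log2 differences were 2.21, 2.097 and 2.04. EPFL2 was called in each of the 13 alternative fits in which it was tested (log2 fold change 1.93 to 2.27, adjusted p at most 0.0108). It was not tested under the stricter filter that asks for 1 CPM or more in every library. Without Dex replicate 1 its log2 fold change was 2.23 (adjusted p = 6.25e-05).

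EPFL6 (AT2G30370, chromosome 2, 12940349 to 12942829, minus strand, also called CHALLAH), a peptide of the stem endodermis, had 44, 44 and 50 pairs in Dex replicates 1 to 3, and 27, 25 and 34 pairs in no_Dex replicates 1 to 3. It averaged 1.66 ± 0.130 CPM in Dex and 0.997 ± 0.175 CPM in no_Dex (SD, n = 3 each), and the groups did not overlap. The log2 fold change was 0.72 (SE 0.19, 95% interval 0.27 to 1.17, edgeR adjusted p = 0.0439). This call was close to the threshold. It was lost with the replicate block (adjusted p = 0.0508), without Dex replicates 2 or 3 (0.116 and 0.119) and without no_Dex replicates 1, 2 or 3 (0.137, 0.153 and 0.0613). It was also lost by DESeq2 (0.123), with no low-count filter (0.0562) and with counts of single reads (0.0511). Leaving out single libraries gave log2 fold changes of 0.64 to 0.86, and the direction was the same in each of these fits, and the log2 differences within the replicate numbers were 0.73, 0.94 and 0.56.

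EPFL5 (AT3G22820, chromosome 3, 8073258 to 8074178, minus strand) and EPFL4 (AT4G14723, chromosome 4, 8439899 to 8440901, plus strand) are the closest relatives of EPFL6 by name in the annotation, CHALLAH-LIKE 1 and 2. EPFL5 had 28, 33 and 31 pairs in Dex, and 26, 26 and 20 pairs in no_Dex. Its Dex values of 0.964 to 1.26 CPM lay above its no_Dex values of 0.705 to 0.912 CPM, but the log2 fold change of 0.39 did not pass the test (95% interval -0.11 to 0.89, edgeR adjusted p = 0.266). EPFL4 was the rarest member, with 16, 10 and 16 pairs in Dex, and 4, 14 and 23 pairs in no_Dex. The no_Dex libraries spanned the whole Dex range, and replicate 1 of no_Dex was close to the floor of 3 pairs. Its log2 fold change was 0.07 with a 95% interval of -1.11 to 1.24, which includes a change of 1 log2 unit either way. EPFL1 (AT5G10310, chromosome 5, 3241439 to 3242380, minus strand), a peptide of the same family, had 39, 50 and 56 pairs in Dex, and 45, 49 and 46 pairs in no_Dex. The EPFL1 groups overlapped, and its log2 fold change of 0.09 did not pass the test (95% interval -0.37 to 0.55, edgeR adjusted p = 0.797).

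ER (AT2G26330, chromosome 2, 11208080 to 11214662, minus strand, 27 exons), the founding receptor of the family, had 1203, 1413 and 1579 pairs in Dex, and 1732, 1962 and 1772 pairs in no_Dex. It stood at 41.4, 54.0 and 55.9 CPM in Dex, against 58.7, 68.8 and 62.4 CPM in no_Dex. All 3 Dex values were below all 3 no_Dex values. The log2 fold change was -0.34 (SE 0.12, 95% interval -0.61 to -0.06), which did not pass after adjustment over all genes (edgeR adjusted p = 0.0983). With the replicate number as a block ER was called lower (log2 fold change -0.35, SE 0.08, adjusted p = 0.0263), and the log2 differences within the numbers were -0.50, -0.35 and -0.16. Without Dex replicate 1, the lowest library for ER, the log2 fold change was -0.21 (adjusted p = 0.0560).

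ERL2 (AT5G07180, chromosome 5, 2227439 to 2233587, minus strand), which acts redundantly with ER, had 275, 438 and 430 pairs in Dex, and 284, 324 and 310 pairs in no_Dex. Dex replicates 2 and 3 were at 16.7 and 15.2 CPM, above the no_Dex range of 9.63 to 11.4 CPM, and Dex replicate 1 was below it at 9.47 CPM. Over all libraries the log2 fold change of 0.36 did not pass the test (95% interval -0.09 to 0.82, edgeR adjusted p = 0.256). Without Dex replicate 1, where 2339 of 21452 tested genes were called higher, it was 0.59 (SE 0.09) and was called higher (edgeR adjusted p = 0.00157). Without Dex replicate 2 it was 0.20 (adjusted p = 0.574) and without Dex replicate 3 it was 0.28 (adjusted p = 0.472). ERL1 (AT5G62230, chromosome 5, 24996129 to 25002439, plus strand), the other redundant receptor, had 86, 125 and 117 pairs in Dex, and 90, 132 and 143 pairs in no_Dex. Its groups overlapped, with a log2 fold change of -0.11 (95% interval -0.64 to 0.42, edgeR adjusted p = 0.792). ERL1 overlaps AT5G62240 on the opposite strand, and with unstranded libraries pairs from the 2 genes cannot be told apart in the overlap. In both groups the number 1 library held the lowest CPM of ER, ERL1, ERL2, EPFL1 and EPFL2. For EPFL4 it did so in no_Dex only, and for EPFL5 and EPFL6 in Dex only.

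**Figure D2:**
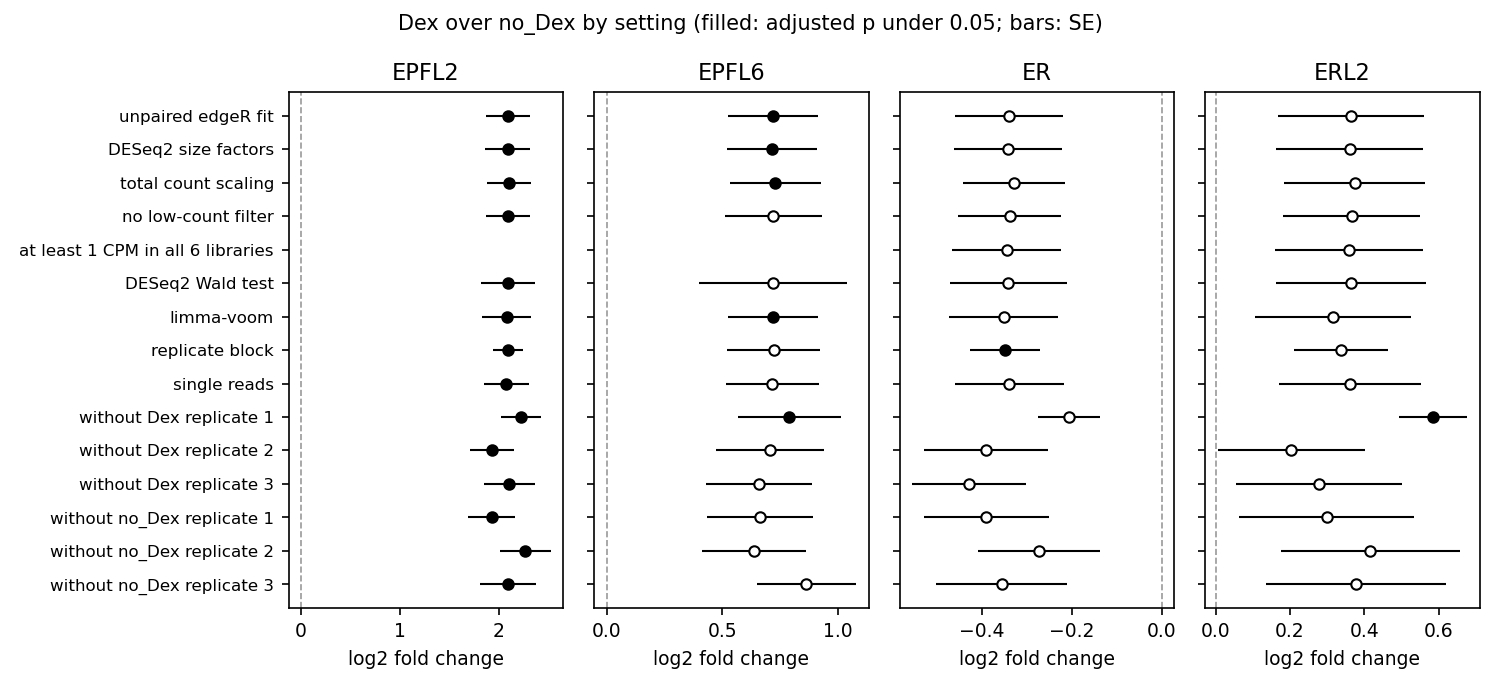
Log2 fold change (Dex over no_Dex) of EPFL2, EPFL6, ER and ERL2 under the unpaired edgeR fit and 14 alternatives, with SE bars and filled points where the adjusted p was under 0.05. EPFL2 is filled in every fit that tested it, EPFL6 loses the call in 9, ER gains it with the replicate block and ERL2 gains it without Dex replicate 1.

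Levels per length were compared as RPKM (CPM divided by the length of the gene model in kilobases). In Dex the order was ER at 15.8 ± 2.47 RPKM, EPFL2 at 8.17 ± 1.65, ERL2 at 4.18 ± 1.16, EPFL1 at 2.66 ± 0.535, EPFL5 at 1.91 ± 0.256, EPFL6 at 1.57 ± 0.123, ERL1 at 1.20 ± 0.279 and EPFL4 at 0.672 ± 0.137 RPKM (SD, n = 3). In no_Dex it was ER at 19.8 ± 1.59 RPKM, ERL2 at 3.22 ± 0.272, EPFL1 at 2.47 ± 0.146, EPFL2 at 1.90 ± 0.442, EPFL5 at 1.43 ± 0.192, ERL1 at 1.28 ± 0.317, EPFL6 at 0.943 ± 0.166 and EPFL4 at 0.644 ± 0.454 RPKM (SD, n = 3). EPFL2 thus stood second in Dex, behind ER, and in no_Dex behind ER, ERL2 and EPFL1. In Dex ER and EPFL2 were separate from each other and from the genes after them, as was EPFL4 from ERL1, while neighbours from ERL2 down to ERL1 overlapped. In no_Dex ER and ERL2 were each separate from the next gene, and neighbours from EPFL2 downward overlapped. EPFL1 was only just separate from EPFL2, with a lowest value of 2.327 RPKM against a highest of 2.325 RPKM. The mean level of EPFL2 was above that of 39.9% of tested genes in Dex and of 14.1% in no_Dex, and that of ER above 58.5% in Dex and 65.9% in no_Dex.

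As a share of the summed RPKM of the 5 ligands, EPFL2 made up 53.2%, 58.0% and 51.8% in Dex replicates 1 to 3, and 22.8%, 29.1% and 24.5% in no_Dex replicates 1 to 3. EPFL2 was thus the largest share among these 5 ligands in each Dex library. EPFL1 held the largest share in each no_Dex library, with 16.3% to 19.8% in Dex and 31.6% to 36.7% in no_Dex. The ligand sum was 14.98 ± 2.30 RPKM in Dex and 7.39 ± 0.915 RPKM in no_Dex, and without EPFL2 it was 6.81 ± 0.807 RPKM in Dex and 5.49 ± 0.531 RPKM in no_Dex (SD, n = 3 each). Without EPFL2 the ranges overlapped, since Dex replicate 1 (5.88 RPKM) lay below no_Dex replicate 3 (5.91 RPKM). Of the receptor transcripts, ER made up 77.5%, 72.2% and 74.9% in Dex, and 82.8%, 81.7% and 80.2% in no_Dex. ERL2 made up 17.1%, 21.6% and 19.7% in Dex, and 13.1%, 13.0% and 13.5% in no_Dex, and ERL1 at most 6.24% in any library. The receptor sum was 21.2 ± 3.85 RPKM in Dex and 24.3 ± 2.07 RPKM in no_Dex, so the ratio of receptor to ligand transcripts was 1.41 ± 0.108 in Dex and 3.31 ± 0.197 in no_Dex (SD, n = 3 each). These shares are descriptions of members chosen with results known, and no test was made of them. In whole seedlings fewer cells with a transcript and less transcript per cell cannot be told apart.

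**Figure D3:**
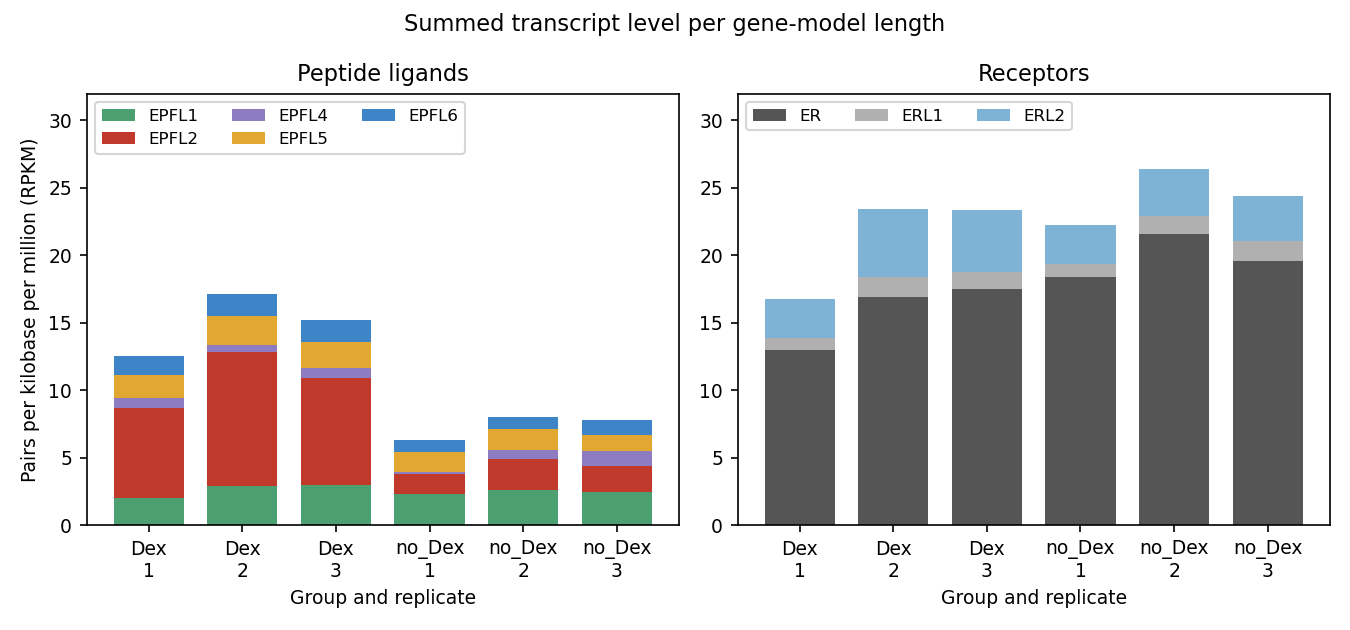
Stacked RPKM of the 5 ligands (left panel) and the 3 receptors (right panel) in each library, with Dex libraries left of no_Dex libraries. The EPFL2 segment is 51.8% to 58.0% of the Dex bars and 22.8% to 29.1% of the no_Dex bars, and ER is the main part of every receptor bar.

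The other genes of the pathway were taken from a list of 31 genes, of which 28 were tested, 0 were called higher and 4 lower, beside 5.99% higher and 8.40% lower over all tested genes. DESeq2 and limma also called 0 higher, and at an unadjusted edgeR p under 0.05 2 were higher, MPK6 and AT5G65920, a ubiquitin ligase named after its values were seen. The median log2 fold change of the 28 genes was -0.06. The 3 relatives annotated as EPIDERMAL PATTERNING FACTOR-like were not tested: AT1G71866 had 5 to 9 pairs in Dex and 9 to 13 in no_Dex, AT3G13898 had 1 to 3 pairs in Dex and 0 to 8 in no_Dex, and AT1G80133 had 0 in all libraries, which allows up to 0.102 to 0.115 CPM by counting error. Of the other 3 peptides (EPF1, EPF2 and EPFL9) none passed. EPFL9, known as STOMAGEN, a mesophyll peptide that promotes stomata, had the smallest p, at 4.70 ± 1.12 CPM in Dex and 5.49 ± 0.0824 CPM in no_Dex (SD, n = 3 each; edgeR adjusted p = 0.415).

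Of 5 co-receptors 1 was called lower, beside 8.40% of all tested genes. SERK2, a co-receptor kinase, had 25.9, 26.9 and 22.9 CPM in Dex, and 31.9, 32.2 and 32.9 CPM in no_Dex. SERK2 was lower in every Dex library, by a log2 fold change of -0.37 (SE 0.07, adjusted p = 0.0106 from edgeR), a call just lost without no_Dex replicate 2 (0.0510). Leaving out Dex replicate 1 gave 2339 genes higher and 2726 lower of 21452 tested. In that fit TMM was called higher (log2 fold change 0.30, edgeR adjusted p = 0.0384) and SERK4 lower (-0.32, adjusted p = 0.0125), both named here after their values were seen. Of 9 genes of cytoplasmic signalling, which include the kinases YDA, MPK3 and MPK6, none passed, and their log2 fold changes lay between -0.07 and 0.14. MPK6, the kinase at the end of the cascade, had the smallest p of these, at 82.5 ± 3.92 CPM in Dex and 74.2 ± 2.12 CPM in no_Dex (SD, n = 3 each; edgeR adjusted p = 0.125). FEI1, a receptor kinase of cell wall signalling listed as a relative of the receptors, had a log2 fold change of -0.12 (adjusted p = 0.156).

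Among 4 ubiquitin ligases and proteases 2 were called lower, beside 8.40% of all tested genes. The list is short and was written with earlier results known, so this count is a description only. ATSBT5.2, a subtilisin-like protease known to process EPF2, had 29.4, 27.7 and 32.5 CPM in Dex, and 44.4, 38.8 and 39.2 CPM in no_Dex. The log2 fold change was -0.46 (SE 0.08; adjusted p = 0.00984 from edgeR), and it was called in all 14 alternatives. AT3G49810, annotated as a ubiquitin ligase with ARM repeats, fell by 0.29 (SE 0.07, edgeR adjusted p = 0.0286), a call lost without Dex replicate 2 (0.0812) and without no_Dex replicates 1, 2 or 3 (0.0557, 0.118 and 0.0851). Of 5 stomatal lineage factors 1 was called lower, beside the same 8.40%. FAMA, which drives guard cell differentiation, fell by 0.30 (SE 0.07, edgeR adjusted p = 0.0309), a call lost by DESeq2 (0.0745), without Dex replicates 2 or 3 (0.0639 and 0.0918) and without no_Dex replicates 1, 2 or 3 (0.0752, 0.0998 and 0.110). Without no_Dex replicate 2 the pathway genes called lower numbered 1 (ATSBT5.2), and without Dex replicate 2, no_Dex replicate 1 or no_Dex replicate 3 they numbered 2. With the replicate block they numbered 6, with SPCH (-0.66, edgeR adjusted p = 0.0211) and SCRM2 (-0.38, adjusted p = 0.0486) added, both chosen after their values were seen.

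Several markers of cell types moved with the groups too. A marker is said to fall where it was called lower, as were 8.40% of all tested genes. The 3 guard cell markers summed to 19.4 to 21.9 CPM in Dex and 28.7 to 31.5 CPM in no_Dex, and 2 of them fell. The 2 epidermis markers summed to 149 to 162 CPM in Dex and 185 to 204 CPM in no_Dex, and both fell. The 3 root markers summed to 3518 to 4293 CPM in Dex and 4945 to 5178 CPM in no_Dex, and 1 of them fell. This sum was mostly PYK10, the marker that fell, with means of 3754 CPM in Dex and 4919 CPM in no_Dex. The 3 green leaf markers summed to 5887 to 9039 CPM in Dex and 10275 to 11519 CPM in no_Dex, and 1 of them fell. That was LHCB1.3, with means of 4413 CPM in Dex and 7177 CPM in no_Dex. RBCS1A was level, at 3098 CPM in Dex and 3096 CPM in no_Dex, and LHCB2.1 stood at 396 and 521 CPM. The 3 shoot meristem markers, 19.9 to 27.8 CPM in Dex and 24.0 to 28.3 CPM in no_Dex, overlapped, and neither of the 2 tested passed. The part of these shifts in the lower values of FAMA, SERK2 or ER, or in the higher ones of EPFL2 and EPFL6, was not tested.

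**Figure D4:**
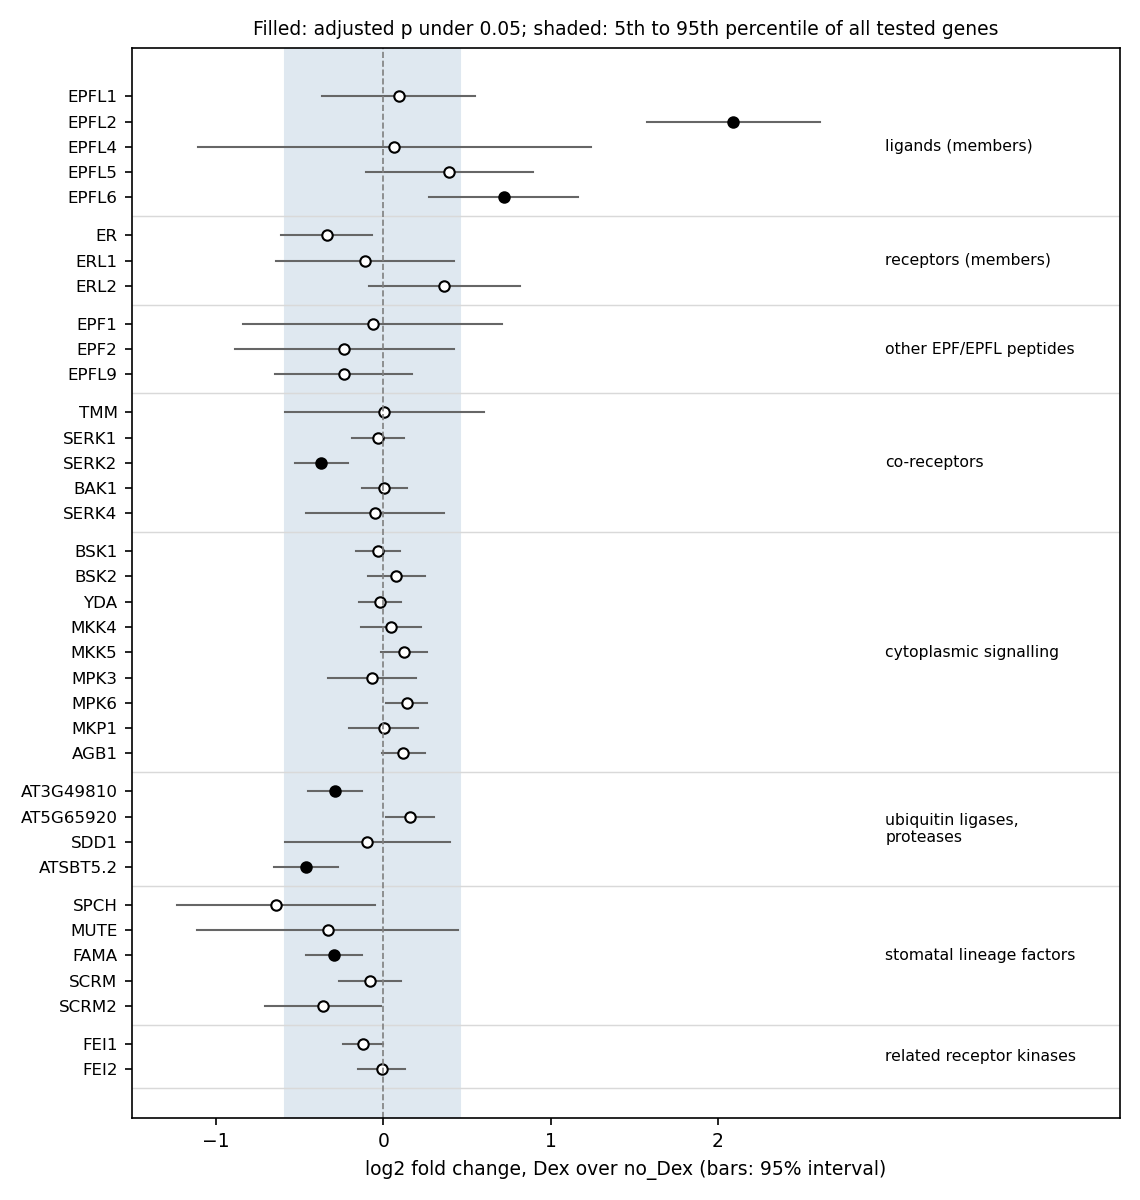
Log2 fold change (Dex over no_Dex) with its 95% interval for the 8 members and the 28 tested genes of the pathway list, with filled points at an adjusted p under 0.05 and the range from the 5th to the 95th percentile of all tested genes shaded. EPFL2 at 2.09 and EPFL6 at 0.72 lie right of the shaded range, and the 4 other filled points are SERK2, AT3G49810, ATSBT5.2 and FAMA, between -0.46 and -0.29.

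The genes with the profile most like EPFL2 over the 6 libraries were RNR2A (Pearson r of log2 CPM 0.999), GATA19 (0.998), MINE1 (0.997), GA20OX3 (0.996) and UXS3 (0.994). RNR2A encodes a subunit of ribonucleotide reductase, GATA19 a zinc-finger transcription factor, GA20OX3 a gibberellin oxidase and UXS3 an enzyme of UDP-xylose synthesis. RNR2A averaged 41.7 CPM in Dex and 20.8 CPM in no_Dex, and GA20OX3 only 0.541 and 0.209 CPM. All 5 were called higher, with log2 fold changes between 0.27 and 1.34, beside 5.99% of all tested genes. They were picked for likeness to a called gene over the same libraries, so these calls are no separate result. For EPFL6 the most alike genes were EIF4A-III (0.998), TXR1 (0.998), SDH6 (0.994), TT8 (0.993) and EMB1674 (0.989), none of which was called. These likenesses rest on 6 points that share the split into groups. Among 9088 genes with a symbol 216 had an r over 0.95 with EPFL2 and 121 with EPFL6.

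**Figure D5:**
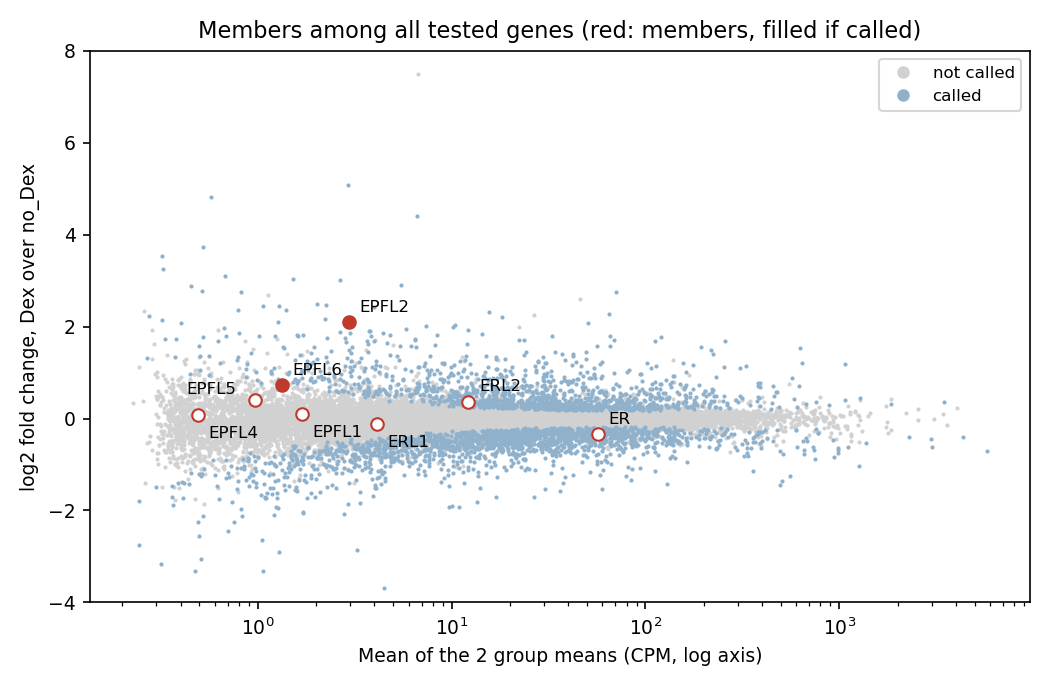
Mean level (CPM, log axis) against log2 fold change (Dex over no_Dex) for all 21344 tested genes, called genes in blue, others in grey, and the 8 members as red circles, filled where called. EPFL2 lies at a log2 fold change of 2.09 and EPFL6 at 0.72, and the other members lie between -0.34 and 0.39.

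Reads that matched related members equally well would have been dropped by the authors and counted for neither, and how many were lost at each gene was not tested. The longest identical run of coding bases was 25 between EPFL4 and EPFL5, 31 between ERL1 and ERL2, 20 between ER and ERL1, and 17 between EPFL1 and EPFL2, over aligned coding sequences 78.5%, 82.7%, 65.7% and 62.3% identical. The gene models of the files were shorter than the only annotated transcript for EPFL2 (588 against 897 bases), EPFL4 (744 against 806), EPFL5 (581 against 634) and ER (3191 against 3985). RPKM, and with it the level order, the shares and the ratio, would therefore shift with the model used. By length alone the factor on the RPKM of a gene would be the same in both groups but would differ between genes. The shares and the ratio combine several genes, so their shift could differ between the groups. Pairs were not recounted on other models.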

How the data were processed

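Each deposited file lists, per the file headers, counts of pairs whose mates align properly to the same model in opposite orientation, with insert size unrestricted. The authors discarded multi-hit alignments with equal top scores, 1.53% to 1.66% of pairs. A second deposited column counts single reads, and a column of the unit other holds the model length in bases, per the file headers. Bowtie2 and TAIR10 are named in the submitters' processing notes without a version or annotation release, and libraries were polyA-selected and unstranded per the labels. Positions come from the RefSeq annotation of TAIR10.1, since the files hold no coordinates.

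CPM and RPKM were computed here from total counted pairs. Correlations between libraries or genes used log2 CPM with TMM-scaled library sizes and a prior count of 2. The count test was edgeR 4.0.16 in R 4.3.3 (filterByExpr with minimum count 10 and minimum total 15, TMM scaling, two-sided quasi-likelihood test of 3 Dex against 3 no_Dex libraries, unpaired), adjusted by Benjamini-Hochberg over 21344 genes. SE was taken from the log2 fold change and the F statistic, and 95% intervals use the t distribution with the fit's degrees of freedom. The fit was tested on simulated data. A count of 0 was taken to allow 3 pairs. Nothing in the labels says that the libraries of a group came from separate cultures, so p-values and intervals measure only the spread between these libraries, which may be technical, and the floor covers counting error only.

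Both groups carry replicate numbers 1 to 3, whose meaning is not given in the labels. Deviations from group means correlated at 0.171, 0.119 and 0.125 for same-numbered libraries, all above 0.1, and reached no more than 0.0177 for the other combinations. Deviations cancel out within a group, so positive values for same-numbered libraries push the other combinations down. This contrast therefore cannot show that the numbers mark pairs. The paired fit is given as an alternative where it changes a call. Alternatives were DESeq2 1.42.0, limma 3.58.1 (voom), other scalings, filters and count columns, the replicate block and leaving out each library. No 2 libraries of a group agreed within sampling noise (chi-square per degree of freedom 3.97 to 26.3).

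The members, gene lists and tests were chosen with earlier results of these data known. Named genes are the 8 members, CUC2, called pathway genes, the gene of smallest p in each sublist and, for each called member, the 5 genes with a symbol whose log2 CPM (prior count 2) correlated best with it. EPFL1 and EPFL2 are names given with the gene codes and not by the annotation.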

Additional observations from a re-analysis of the deposited data

How the results depend on the processing

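EPFL2 kept its direction and its call in each of the 13 alternatives that tested it. The number of members called higher was 1 with no low-count filter, by DESeq2, with the replicate block and with single reads, 0 with at least 1 CPM in all 6 libraries, which left out EPFL2 and EPFL6, and 1 to 3 when single libraries were left out. The number called lower was 1 with the replicate block. Leaving out single libraries gave 0 to 1 pathway genes higher and 1 to 5 lower, and over all genes 519 to 2339 higher and 785 to 2726 lower. The sign of 3 uncalled members changed when single libraries were left out: EPFL1 lay between -0.021 and 0.26 on the log2 scale (-0.021 without Dex replicate 3), EPFL4 between -0.38 (without no_Dex replicate 1) and 0.67, with -0.04 without Dex replicate 3, and ERL1 between -0.30 and 0.072 (0.072 without Dex replicate 1 and 0.03 without no_Dex replicate 3). The cause was not tested. With CPM not divided by length the EPFL2 share of the 5 ligands was 48.7% in Dex and 21.9% in no_Dex. The ratio of the 3 receptors to the 5 ligands was then 6.93 in Dex and 15.6 in no_Dex, since the receptor models are longer. Other scalings (DESeq2 size factors, total pairs) changed no call of a member, and the median of all tested genes lay between 0.00 and 0.02 on the log2 scale. The replicate block changed 2 calls among the members (EPFL6 lost, ER gained) and raised the pathway genes called lower to 6. EPFL4 rested on 4 to 23 pairs per library and had the widest 95% interval of the 8 members (-1.11 to 1.24 on the log2 scale).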
